A study of Homo sapiens with 12 samples.

Results

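Inhibition of PRMT4 (also named CARM1) was examined for where it left each mRNA in a ribosome gradient of HEK293T cells, a human embryonic kidney line that carries the SV40 large T antigen. For each gene the shift was the level in the library with 3 or more ribosomes over that in the library with 1 ribosome, as log2, in PRMT4 inhibitor-treated cells, minus the same ratio in cells treated with DMSO, the solvent control. A positive shift lies toward 3 or more ribosomes (heavy polysomes) and a negative one toward 1 ribosome (monosomes). Values were FPKM (fragments scaled to transcript length and library size), to which a pseudocount of 1 was added. The shift was computed where the mean over the 12 libraries of the study reached 20 FPKM, a minimum that 2594 of 15534 genes met. The lysates had been separated on 10 to 50% sucrose gradients, and DMSO, PRMT1 inhibitor and PRMT4 inhibitor cells each gave an input library and libraries with 1, 2 and 3 or more ribosomes, 1 library per group. The shift used 4 of these libraries, the 2-ribosome libraries served as the middle step, and the inputs took no part in it. All values below are relative to the median gene, whose shift before centring was 0.12.

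Translation of a cytosolic mRNA begins with 1 ribosome, and further ribosomes load behind it while the first is still elongating, so mRNAs that are initiated often sediment deep in the gradient. PRMT4 places asymmetric dimethyl marks on arginines of histone H3, of transcriptional coactivators, and of RNA-binding and splicing proteins such as PABPC1. Ribosomal protein mRNAs begin with a 5' terminal oligopyrimidine (TOP) tract through which mTOR signalling governs their loading, whereas mitochondrially encoded mRNAs are read by ribosomes inside the organelle and never join cytosolic polysomes.

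Each group was 1 library, so the spread between cultures is unknown, no test was run and only sizes are given. From the steps in the FPKM of genes with 1 transcript, the 6 libraries were estimated to hold 460829 to 602410 fragments, the fewest in the PRMT4 inhibitor 1-ribosome library. Fragments per gene were estimated from its longest annotated transcript, with a median of 74.0 per gene and library. This gives the shift a median counting standard error of 0.38 (log2). Where the RNA came from a shorter transcript, the fragments are overstated and the counting errors given below are too small. Counting error is a lower limit on the true error. In Spearman correlation over the 2594 genes, each of the 6 libraries stood closest among the other treatments to the library with the same ribosome number (rho 0.769 to 0.874). The DMSO and PRMT4 inhibitor libraries correlated at 0.769 with 1 ribosome, 0.85 with 2 and 0.85 with 3 or more. The library kit keeps the strand of the RNA, but the strand setting of the counting was not given in the sources used here, and 67.7% of the annotated genes above the minimum (1715 of 2534) overlapped an exon of another gene that runs the opposite way, against 39.3% in the whole table. Values are therefore those listed under a gene. The opposite-strand partner with the longest overlap is named beside the gene where it has a symbol, and further partners were not recorded. For ALDOA, GAD1, KLC2, MDM2, MRPL38, NBR1, NEFM, OAZ3, PRMT1, RPL17, RRP12, SIL1, TAC4, TPT1, TUBB and YY1 that partner has no symbol. Some genes named only in the last paragraph have their partners given here. CFL1, OST4, PSMC5 and SLC2A1 lie opposite MUS81, AGBL5, FTSJ3 and SLC2A1-DT. SLX1A, SRPRA, TP53I3 and TUBA1B lie opposite BOLA2B, FOXRED1, FAM228B and TUBA1B-AS1. OAZ3 also lies opposite MRPL9. Of 12 markers of the HEK293T lineage, 11 were in the table. VIM (opposite VIM-AS1) and KRT8 (opposite KRT18) were listed at 205 to 366 and 371 to 1951 FPKM, while the other 9 had means over the 6 libraries from 0 for PAX2, a kidney lineage gene, to 13.9 for NEFM, a neurofilament gene. Of 22 markers of other cell types, 9 were in the table, with sums of 128 to 355 FPKM in DMSO, against 172 to 217 with the inhibitor, mostly from GFAP, which lies opposite CCDC103.

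The shift was broad and nearly symmetric. The middle 50% of genes lay between -0.66 and 0.64, against -0.62 and 0.54 for the same quantity with the PRMT1 inhibitor. A shift of at least 2-fold toward 3 or more ribosomes was found for 389 genes (15% of those above the minimum) and one of at least 2-fold toward 1 ribosome for 439 (16.9%), or 31.9% in either direction. With the PRMT1 inhibitor, which shares the DMSO libraries, the shares were 13.6% and 15.9%. At 4-fold the split was uneven, with 74 genes toward 3 or more ribosomes and 158 toward 1. The share past 2-fold depended on the level of the gene. Between 20 and 50 FPKM, 17.6% of 1353 genes lay toward 3 or more ribosomes and 20.3% toward 1, and between 100 and 500 FPKM 10.98% and 11.56% of 519 did. At 500 FPKM and above, 2 of 86 genes (2.33%) and 12 of 86 (13.95%) did. The median shift did not follow coding length. It lay between -0.07 and 0.06 in 5 groups of genes ordered by coding length. The Spearman rho over 2526 genes was 0.037, a description over genes that share the same 4 libraries. In the shortest group, 20.9% of genes were past 2-fold toward 1 ribosome and 17.8% toward 3 or more. In the longest group each share was 14.1%.

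**Figure D1:**
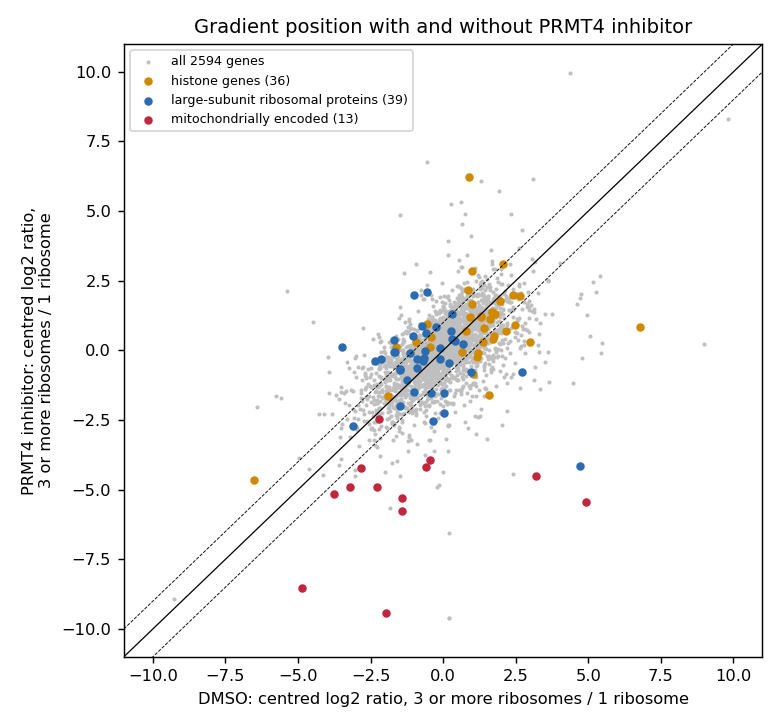
Centred log2 ratio (3 or more ribosomes over 1) in DMSO (horizontal) and with the PRMT4 inhibitor (vertical), 1 point per gene, with the solid line at no shift and the dashed lines at a 2-fold shift. The 13 mitochondrially encoded mRNAs (red) all lie below the solid line, while the 39 large-subunit ribosomal protein genes (blue) and 36 histone genes (orange) lie on both sides of it.

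A shift can come from any of its 4 libraries. A library was said to carry it when its deviation from the gene's median over the 6 libraries made up at least 50% of the shift. Deviations of opposite sign can cancel, so more than 1 library can reach 50%. Only the library with the largest part was then counted. The DMSO libraries carried 392 of the 828 shifts past 2-fold (47.3%) and the PRMT4 inhibitor libraries 341 (41.2%). Toward 3 or more ribosomes, the DMSO library with 3 or more ribosomes carried 135 and the PRMT4 inhibitor 1-ribosome library 125, while the DMSO 1-ribosome library carried 61 and the PRMT4 inhibitor library with 3 or more ribosomes 26. Toward 1 ribosome, the DMSO 1-ribosome library carried 140, the PRMT4 inhibitor 1-ribosome library 105, the PRMT4 inhibitor library with 3 or more ribosomes 85 and the DMSO one 56. No single library carried 42 and 53 shifts. The DMSO values also enter the PRMT1 inhibitor comparison, in which the 389 genes had a median shift of 0.75 and the 439 genes one of -0.95.

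The 2-ribosome libraries gave the order of the values along the gradient. A shift was called stepwise when the difference between PRMT4 inhibitor and DMSO with 2 ribosomes lay between the differences with 1 and with 3 or more. This held for 254 of the 389 genes shifted toward 3 or more ribosomes and 267 of the 439 shifted toward 1. Genes chosen for a wide gap between the ends hold the middle value more often by construction, so nothing is read from these counts. The 2-ribosome libraries differed least between the treatments. With 1 ribosome, 11.4% of genes were at least 2-fold higher with the inhibitor and 9.98% at least 2-fold lower, with 2 ribosomes 6.48% and 5.4%, and with 3 or more 8.1% and 7.4%. For 10 genes the ratio was at least 2-fold toward 1 ribosome in DMSO and at least 2-fold toward 3 or more with the inhibitor, and for 32 genes it ran the opposite way.

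**Figure D2:**
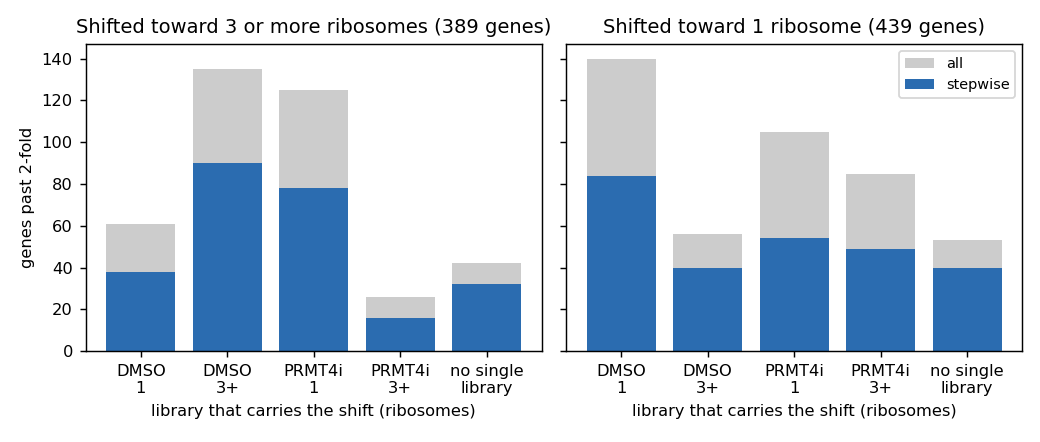
Number of genes shifted at least 2-fold toward 3 or more ribosomes (left, 389 genes) or toward 1 ribosome (right, 439 genes), by the library that carried the shift; blue marks the stepwise ones. The DMSO library with 3 or more ribosomes (135) and the PRMT4 inhibitor 1-ribosome library (125) lead on the left, and the DMSO 1-ribosome library (140) on the right.

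The 13 mitochondrially encoded mRNAs, which code for core subunits of respiratory complexes I, III and IV and of the ATP synthase, had the lowest median of the 22 gene lists. All 13 lay below 0, and 12 were shifted at least 2-fold toward 1 ribosome, where 16.9% of all genes were. Their median shift was -3.65, with a range of -10.4 to -0.30. The PRMT4 inhibitor 1-ribosome library carried 11 of those 12, and MT-ND4L, a complex I subunit, had no single carrier. No member overlapped an annotated exon on the opposite strand. That does not show which strand the listed fragments came from, because the strand setting of the counting was not given, and this was not tested.

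In DMSO, MT-CYB, the complex III subunit encoded in mitochondria, was listed at 267 FPKM with 1 ribosome, 208 with 2 and 86.7 with 3 or more, against 3703, 252 and 61.8 in the same order with the PRMT4 inhibitor. MT-ND5, of complex I, was listed at 282, 174 and 50.6 in DMSO, against 2110, 265 and 63.7 with the inhibitor. In both, the 1-ribosome value stood apart and the other values were close to those of DMSO, so the shifts of -4.38 (counting SE 0.35) and -2.69 rest on that library. MT-ND6, the complex I subunit read from the other strand of the mitochondrial genome, went from 70.5, 42.2 and 14.9 in DMSO to 8280, 70.5 and 9.88, a 117-fold difference with 1 ribosome. MT-ND1 was listed at 23.5, 30.6 and 6.95 in DMSO and 741, 49.3 and 16.1 with the inhibitor, and MT-ND4 at 60.1, 93.2 and 38.03 against 600, 196 and 34.8. Both encode complex I subunits, and both were far above DMSO with 1 ribosome. MT-CO1, the catalytic subunit of complex IV, differed least, at 203, 64.2 and 37.6 in DMSO and 518, 99.8 and 85.4 with the inhibitor, which is 2.56-fold with 1 ribosome. MT-CO2 and MT-ND4L were listed at 0 in the DMSO 1-ribosome library and at 288 and 643 FPKM in that of the inhibitor, so their shifts of -7.77 and -10.4 depend on the pseudocount.

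Summed over the 13 genes, the level was 1038, 759 and 290 FPKM in the DMSO libraries with 1, 2 and 3 or more ribosomes, 1101, 666 and 264 with the PRMT1 inhibitor, and 18754, 1293 and 345 with the PRMT4 inhibitor. The PRMT4 inhibitor 1-ribosome library therefore stood 18.1-fold above DMSO, while the ratio was 1.70 with 2 ribosomes and 1.19 with 3 or more. Without MT-ND6 the ratios were 10.8, 1.71 and 1.22. In estimated fragments, the 1-ribosome libraries held 639 (95% Poisson interval 590 to 691) in DMSO and 6219 (6065 to 6376) with the PRMT4 inhibitor, intervals that cover counting error only. All 13 genes were higher with the PRMT4 inhibitor than with DMSO at 1 ribosome, 11 at 2 ribosomes and 7 at 3 or more. They took 0.259% of all FPKM in the DMSO 1-ribosome library, 0.259% in that of the PRMT1 inhibitor and 4.79% in that of the PRMT4 inhibitor. The inputs, which did not enter the shift, differed among themselves, with sums of 7678 FPKM in DMSO (of which MT-ND6 gave 5993), 373 with the PRMT1 inhibitor and 4226 with the PRMT4 inhibitor. Against the PRMT1 inhibitor libraries in place of DMSO, the median shift was -2.87, and between 2 and 3 or more ribosomes it was -0.33.

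**Figure D3:**
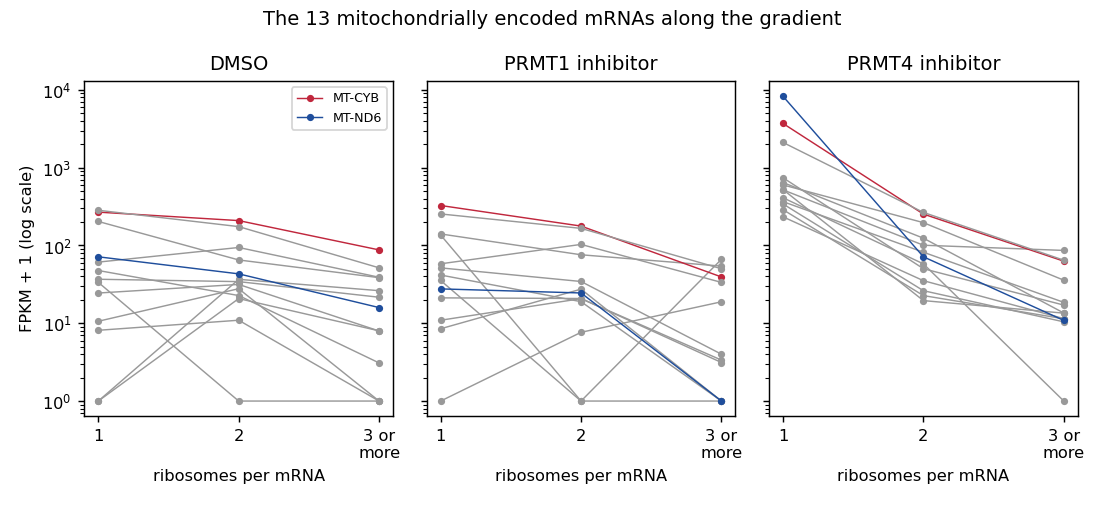
FPKM + 1 (log scale) of each of the 13 mitochondrially encoded mRNAs in the libraries with 1, 2 and 3 or more ribosomes, 1 line per gene and 1 panel per treatment, MT-CYB in red and MT-ND6 in blue. With the PRMT4 inhibitor, the 1-ribosome values run from 232.5 to 8280 FPKM, against 0 to 282 in DMSO, and the values with 3 or more ribosomes overlap those of DMSO.

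Values listed under cytosolic ribosomal protein genes lay on both sides of 0, with more large-subunit genes toward 3 or more ribosomes. Of 39 large-subunit genes, 12 (30.8%) were past 2-fold toward 3 or more ribosomes, where 15% of all genes were, and 7 (17.95%) toward 1 ribosome; their median shift was 0.36. Toward 1 ribosome the share of all genes was 16.9%. Of 30 small-subunit genes, 6 (20%) and 7 (23.3%) were past 2-fold, with a median of 0.14. Of 17 other TOP mRNAs, which encode elongation factors and related proteins, 5 (29.4%) were past 2-fold each way, with a median of 0.25. The large-subunit median difference between PRMT4 inhibitor and DMSO was -0.52 with 1 ribosome, -0.15 with 2 and -0.14 with 3 or more, so the median was lowest with 1 ribosome, where 22 of the 39 genes were listed lower with the inhibitor and 17 higher. The median large-subunit ratio of 3 or more ribosomes to 1 was -0.66 in DMSO and -0.31 with the PRMT4 inhibitor, and -0.21 with the PRMT1 inhibitor. Against the PRMT1 inhibitor libraries in place of DMSO, the large-subunit median was -0.03. Many ribosomal protein genes have near-identical processed copies elsewhere in the genome, and fragments may be split among them.

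Among these genes, RPL9, which lies opposite LIAS, was listed at 188, 159 and 82.3 FPKM in DMSO, against 46.4, 146 and 171 with the PRMT4 inhibitor. Its order along the gradient was inverted, and the shift of 2.92 (counting SE 0.29) was stepwise and carried by the PRMT4 inhibitor 1-ribosome library. RPL7 was listed at 402, 89.3 and 107 in DMSO and 36.6, 67.2 and 43.9 with the inhibitor, a shift of 2.03 carried by the DMSO 1-ribosome library. RPL21, at 99.8, 30.5 and 6.84 against 41.4, 28.7 and 40.7, had a shift of 3.55 carried by the DMSO library with 3 or more ribosomes. These 3 large-subunit genes thus shifted the same way, with the largest part in a different library for each. RPS15A, of the small subunit, was listed at 137, 47.7 and 25.5 in DMSO and 57.6, 59.4 and 72.8 with the inhibitor, and no single library carried its shift of 2.60. RPS26 was listed at 0 in the PRMT4 inhibitor 1-ribosome library and at 13.5 in that of DMSO, so its shift of 3.74 depends on the pseudocount.

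In the other direction, RPL36A, of the large subunit, had the lowest shift of all genes above 0 in the 6 libraries, -8.91 (counting SE 1.17). It was listed at 1.81, 67.1 and 63.2 FPKM in DMSO, against 148, 53.3 and 6.63 with the inhibitor, so the 2-ribosome values were alike and both ends were inverted. RPS2 was listed at 149, 106 and 42.4 in DMSO, against 916, 135 and 52.7 with the inhibitor, and RPS18, opposite VPS52, at 63.3, 70.6 and 39.7 against 268.9, 48.5 and 25.6. Both small-subunit genes were high in the PRMT4 inhibitor 1-ribosome library, which carried their shifts of -2.42 and -2.80. RPL13 and RPS15, among the more highly listed members, hardly differed, with shifts of -0.27 and -0.01. RPL10 (opposite DNASE1L1) and RPL35 (opposite WDR38), also highly listed, had shifts of 0.997 and 0.95.

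Of the other TOP mRNAs, EEF2, the ribosomal translocase, was listed at 329, 102 and 62.0 FPKM in DMSO, against 292, 192 and 188 with the PRMT4 inhibitor. It was higher with 2 and with 3 or more ribosomes, its shift of 1.64 was stepwise and the DMSO library with 3 or more ribosomes carried it; with the PRMT1 inhibitor its shift was 2.41. BTF3, a subunit of the nascent polypeptide-associated complex, was listed at 45.6, 5.96 and 45.0 in DMSO and 2.90, 28.0 and 37.0 with the inhibitor, a shift of 3.19 (counting SE 1.30). CCNI, a cyclin, went toward 1 ribosome, from 31.4, 110 and 67.1 to 48.2, 49.4 and 7.71, a shift of -3.68 carried by the PRMT4 inhibitor library with 3 or more ribosomes. TPT1, the translationally controlled tumour protein, was listed at 326, 51.2 and 70.6 against 140, 42.1 and 96.6, with a shift of 1.55 carried by the DMSO 1-ribosome library.

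The start sites of these genes show that a TOP tract was present at both ends of the range. The windows below run from 10 bases before to 20 bases from the RefSeq start (GRCh38.p14, read on the strand of the gene), with the pyrimidine run at the start in capitals. Among ribosomal protein and TOP-list genes with such a start, the first 4 are near the high end of the shift and the last 4 near the low end.
RPL21 (chr13:27251548-27251577, plus strand, shift 3.55): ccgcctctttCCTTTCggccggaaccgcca
BTF3 (chr5:73498432-73498461, plus strand, shift 3.19): cttccggcctCCCTTTagctgccatcttgc
RPS3A (opposite SH3D19, chr4:151099618-151099647, plus strand, shift 1.93): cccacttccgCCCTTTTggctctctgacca
RPL29 (chr3:51995876-51995905, minus strand, shift 1.75): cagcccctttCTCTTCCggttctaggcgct
RPL36A (chrX:101391001-101391030, plus strand, shift -8.91): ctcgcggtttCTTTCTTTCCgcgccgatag
CCNI (chr4:77075970-77075999, minus strand, shift -3.68): ctctcttcccCTCCCTCCCCagccttcccc
RPL14 (chr3:40457329-40457358, plus strand, shift -3.52): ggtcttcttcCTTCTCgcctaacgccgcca
RPS18 (chr6:33272065-33272094, plus strand, shift -2.80): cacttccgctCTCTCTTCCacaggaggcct
Of the 2594 genes, 2004 matched the promoter table by name, and 151 of them (7.54%) began with C followed by at least 4 pyrimidines, as 4.04% of all 27305 promoters did. These 151 had a median shift of 0.01, with 27 past 2-fold in each direction (17.9% each). The 45 of the 151 that are ribosomal protein or TOP-list genes had a median of 0.26. Of these 45, 14 (31.1%) lay toward 3 or more ribosomes and 10 (22.2%) toward 1. The 21 genes on those lists with another start had a median of 0.32. The 106 genes with such a start that are on neither list had a median of -0.09. A match describes the letters at 1 annotated start and not the transcript used in these cells.

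Translation initiation factors split evenly. Of 12, 4 (33.3%) were past 2-fold toward 3 or more ribosomes, against 15% of all genes, and 4 toward 1, against 16.9%, with a median of -0.22. EIF4G2, an initiation factor related to eIF4G that lies opposite CTR9, was listed at 52.9, 62.3 and 20.6 FPKM in DMSO, against 29.3, 36.4 and 52.9 with the PRMT4 inhibitor, a shift of 2.03 that no single library carried. EIF4A1, the initiation helicase, was at 43.1, 61.0 and 47.0 against 9.07, 28.0 and 40.7, with a shift of 1.81 carried by the PRMT4 inhibitor 1-ribosome library. Toward 1 ribosome, EIF3H, a subunit of eIF3 opposite UTP23, was listed at 23.5, 50.6 and 17.4 against 55.6, 23.8 and 13.5, a shift of -1.67, and EIF2B5, the catalytic subunit of the eIF2 exchange factor opposite EIF2B5-DT, had one of -1.43. Ribosome biogenesis factors, 8 in number, had a median of 0.15 with 1 gene past 2-fold each way: RRP12 (2.29, listed at 0 in the DMSO library with 3 or more ribosomes) and UTP18 (-1.75).

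Replication-dependent histone genes, whose mRNAs end in a stem-loop in place of a poly(A) tail, were mixed in shift and had lower median levels with the inhibitor. Of 36, 11 (30.6%) were past 2-fold toward 1 ribosome, against 16.9% of all genes, and 7 (19.4%) toward 3 or more, near the 15% of all genes, with a median shift of -0.38. Their median difference between PRMT4 inhibitor and DMSO was -0.64 with 1 ribosome, -0.60 with 2 and -0.86 with 3 or more, below 0 in each, although 12 of the 36 genes were listed higher with the inhibitor at 1 ribosome. With the PRMT1 inhibitor against DMSO the median shift was -1.03. With the PRMT1 inhibitor libraries in place of DMSO, the median shift of the PRMT4 inhibitor was 0.72. H1-4, a linker histone, was listed at 316, 478 and 837 FPKM in DMSO, against 1440, 307 and 427 with the PRMT4 inhibitor. The DMSO values ascended along the gradient, while with the inhibitor the 1-ribosome value was the highest and the other values still ascended from 2 to 3 or more, for a shift of -3.27 (counting SE 0.22) carried by the PRMT4 inhibitor 1-ribosome library. H2BC12, a core histone H2B gene, was listed at 286, 797 and 1137 against 364, 757 and 536, a shift of -1.55. H2BC5 was listed at 21.8, 40.6 and 156 against 62.4, 62.1 and 69.6, a shift of -2.75. The DMSO 1-ribosome library carried both. For H2BC5 its part was -1.48, close to -1.43 from the DMSO library with 3 or more ribosomes. H4C14, an H4 gene opposite H3C14, lay the other way at 306, 949 and 1127 against 81.7, 368 and 640, with a shift of 0.96. H2AC13 (-5.98) and H4C8 (5.29) were each listed at 0 in a 1-ribosome library, DMSO for the first and PRMT4 inhibitor for the second. Copies of histone genes are near identical, and H3C14 and H3C15 (opposite H4C15) were listed at the same values in every library.

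Few genes of the splicing machinery were above the minimum. Of 6 snRNP proteins, 4 (66.7%) were past 2-fold toward 1 ribosome, against 16.9% of all genes, and none toward 3 or more. Their median was -1.31. SNRPD3, a ring protein of the snRNPs opposite GUCD1, was listed at 9.39, 20.8 and 39.4 FPKM in DMSO, against 26.9, 16.4 and 40.3 with the inhibitor, a shift of -1.51. SNRPD2, opposite QPCTL, was listed at 6.85, 22.3 and 33.8 against 29.4, 32.7 and 13.4, a shift of -3.34 (counting SE 1.23). The DMSO 1-ribosome library carried both, with a part of -1.26 for SNRPD3 beside -0.83 from the DMSO library with 3 or more ribosomes. SNRPG (-1.71) was carried by the DMSO library with 3 or more ribosomes. Only SNRNP25 (-1.12, opposite POLR3K) of these 4 was carried by a PRMT4 inhibitor library, and between 2 and 3 or more ribosomes the median of the 6 was 0.10. Of 12 hnRNP and SR regulators, 3 (25%) were past 2-fold toward 1 ribosome, HNRNPUL1 (-1.30, opposite TGFB1), SRSF2 (-1.15) and HNRNPAB (-1.09, opposite PHYKPL), all carried by the DMSO 1-ribosome library.

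Proteins known as PRMT4 substrates or partners gave 6 genes, of which 4 (66.7%) lay past 2-fold toward 1 ribosome, against 16.9% of all genes, with a median of -1.05. PABPC1, the cytoplasmic poly(A)-binding protein, was listed at 35.1, 20.5 and 36.8 FPKM in DMSO, against 79.4, 22.4 and 38.8 with the PRMT4 inhibitor. It differed with 1 ribosome and was alike elsewhere, for a shift of -1.20 (counting SE 0.34). PKM, the last enzyme of glycolysis, was listed at 31.5, 71.1 and 41.9 against 85.9, 32.7 and 59.1, a shift of -1.05 that was not stepwise. WDR5 (-1.04, opposite WDR5-DT) was also carried by the PRMT4 inhibitor 1-ribosome library, and SRSF2, opposite MFSD11, by the DMSO one. The 4 genes lay just past 2-fold, at -1.20 to -1.04, with counting SEs of 0.30 to 0.39. The median of these 6 genes was 0.63 between 2 and 3 or more ribosomes, and it was 0.11 over all 21 listed genes with no minimum on FPKM. With the PRMT1 inhibitor libraries in place of DMSO, the median of the 6 was -0.15. CARM1, the gene of PRMT4, lies opposite YIPF2 and was listed at 142, 129 and 84.9 in DMSO and 119, 133 and 108 with the inhibitor, a shift of 0.48 (counting SE 0.22). PRMT6 was the other methyltransferase gene above the minimum, with a shift of 0.16; PRMT1, at a mean of 18.1 FPKM, was below it.

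Nuclear genes of the mitochondrion did not share the size of the mitochondrially encoded shift. Of 23 nuclear-encoded oxidative phosphorylation subunits, 8 (34.8%) were past 2-fold toward 1 ribosome, against 16.9% of all genes, and 4 (17.4%) toward 3 or more, near the 15% of all genes, with a median of -0.38. NDUFB10, of complex I, was listed at 26.3, 66.2 and 72.5 FPKM in DMSO, against 77.7, 89.6 and 58.8 with the inhibitor, a stepwise shift of -1.94 carried by the DMSO 1-ribosome library. SDHC, a membrane subunit of complex II opposite CFAP126, was listed at 95.8, 69.0 and 49.5 against 24.0, 23.6 and 90.02, a stepwise shift of 2.69 (counting SE 0.16) that no single library carried; with the PRMT1 inhibitor it was 2.41. The PRMT4 inhibitor 1-ribosome library carried 1 of the 12 shifts of this list past 2-fold, COX5B. Of 14 mitochondrial ribosomal proteins, 3 (21.4%) lay toward 1 ribosome and 2 (14.3%) toward 3 or more, with a median of -0.50.

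**Figure D4:**
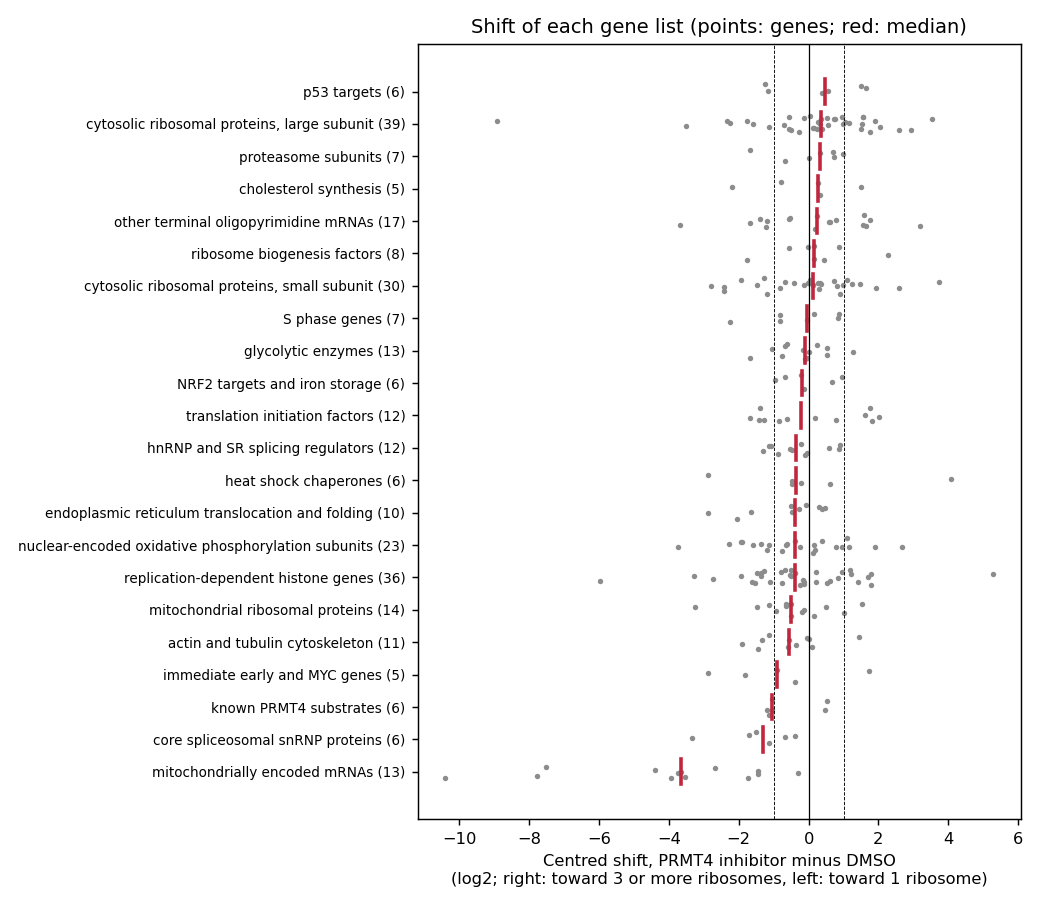
Centred shift (log2) of every gene on the 22 lists with at least 5 genes above the minimum, 1 point per gene, with the list median in red and the number of genes in brackets. The mitochondrially encoded list stands lowest at -3.65, and the other medians lie between -1.31 and 0.47.

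The remaining lists had medians near that of all genes or held few genes, and their counts past 2-fold stand against 16.9% of all genes toward 1 ribosome and 15% toward 3 or more. Of 11 actin and tubulin genes, 4 (36.4%) were past 2-fold toward 1 ribosome and 1 (9.09%) toward 3 or more, with a median of -0.57. ACTG1, cytoplasmic gamma-actin, was listed at 68.0, 151 and 211 FPKM in DMSO, against 138, 76.5 and 122 with the PRMT4 inhibitor, a shift of -1.91 (counting SE 0.26) carried by the DMSO 1-ribosome library; with the PRMT1 inhibitor it was 0.93. Immediate early and MYC genes gave 5, with 2 toward 1 ribosome, 1 toward 3 or more and a median of -0.90. MYC, the transcription factor, was listed at 31.5, 18.9 and 53.9 in DMSO and 69.4, 9.29 and 35.6 with the inhibitor, a shift of -1.82 (counting SE 0.41) carried by the PRMT4 inhibitor 1-ribosome library, and JUND, a member of AP-1, had a shift of 1.73 through the same library. Endoplasmic reticulum translocation and folding genes had 3 of 10 toward 1 ribosome and a median of -0.38. Among them, HSP90B1, the HSP90 of the endoplasmic reticulum opposite UQCC6, was listed at 6.92, 16.2 and 18.1 against 59.6, 39.5 and 20.6, a shift of -2.87. Heat shock chaperones had 1 of 6 past 2-fold each way and a median of -0.35.

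Glycolytic enzymes had a median of -0.10, with 2 of 13 (15.4%) toward 1 ribosome and 1 (7.69%) toward 3 or more, against 16.9% and 15% of all genes. ALDOA, aldolase, was one of the best measured genes, at 270, 208 and 271 FPKM in DMSO, against 451, 236 and 153 with the PRMT4 inhibitor. The inhibitor values descended along the gradient and the DMSO values did not, for a stepwise shift of -1.68 (counting SE 0.16) that no single library carried; with the PRMT1 inhibitor it was -0.20. Proteasome subunits (median 0.32, 1 of 7 toward 1 ribosome), S phase genes (-0.06, 1 of 7 toward 1 ribosome), cholesterol genes (0.27, 1 of 5 each way), p53 targets (0.47, 2 of 6 each way) and NRF2 targets and iron storage (-0.18, none of 6 past 2-fold) completed the lists. FDPS, a farnesyl diphosphate synthase opposite RUSC1-AS1, was listed at 56.2, 66.5 and 45.0 in DMSO and 212, 104 and 40.0 with the inhibitor, a stepwise shift of -2.18 carried by the PRMT4 inhibitor 1-ribosome library. Among p53 targets, BAX, the pore-forming apoptosis protein, was listed at 40.4, 18.9 and 12.8 against 32.8, 33.6 and 36.9, a shift of 1.64 carried by the DMSO library with 3 or more ribosomes.

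Of the 12 highest shifts among genes above 0 in all 6 libraries, the PRMT4 inhibitor 1-ribosome library carried 7, each through a low value. PTGES3, the HSP90 co-chaperone p23, was listed at 137, 52.4 and 201 FPKM in DMSO, against 4.65, 72.6 and 151 with the inhibitor, a shift of 4.09 (counting SE 0.61). YY1, a zinc-finger transcription factor, was listed at 72.3, 71.6 and 71.8 in DMSO and 3.97, 68.9 and 67.9 with the inhibitor, a shift of 3.69 (counting SE 0.45). RAN, the GTPase of nuclear transport, was at 70.3, 92.2 and 119 against 6.87, 18.1 and 122, a stepwise shift of 3.10 (counting SE 0.56). All 3 were near DMSO with 3 or more ribosomes and low in the inhibitor 1-ribosome library. SIL1, a nucleotide exchange factor of the endoplasmic reticulum, and ZNF584, a zinc-finger protein, had shifts of 3.996 and 3.195 through the same library. MED22, a Mediator subunit opposite RPL21P81, had the highest shift of all genes above 0 in the 6 libraries, 5.44, but it rests on 0.50 FPKM in the DMSO library with 3 or more ribosomes, and with the PRMT1 inhibitor it was 5.36.

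Of the lowest shifts, several rested on 1 low value. DDB1, the adaptor of the CUL4 ubiquitin ligase that lies opposite TKFC, was listed at 0.43 FPKM in the DMSO 1-ribosome library and 19.4 to 45.5 in the other 5, for a shift of -5.10 here and -4.33 with the PRMT1 inhibitor. SEC23A, a COPII coat protein opposite SEC23A-AS1, was listed at 31.1, 20.7 and 24.7 in DMSO and 52.5, 21.6 and 0.72 with the PRMT4 inhibitor, and NBR1, an autophagy receptor, at 3.21, 37.7 and 18.4 against 39.7, 62.0 and 0.73. Both were near 0 in the PRMT4 inhibitor library with 3 or more ribosomes, which carried their shifts of -4.75 and -6.88. GATAD2A, a subunit of the NuRD complex, was listed at 2.52, 20.3 and 29.8 against 93.1, 14.9 and 31.7, a shift of -4.77 (counting SE 0.58). The DMSO 1-ribosome library carried it. CCDC18, opposite TMED5, was better measured, at 70.1, 122.5 and 163 against 656, 142 and 193. It stood apart in the PRMT4 inhibitor 1-ribosome library, with a shift of -3.09 (counting SE 0.15). ENSG00000269558, which has no symbol in the annotation used, was at 0.62, 53.5 and 61.7 in DMSO and below 1 FPKM in all 3 PRMT4 inhibitor libraries, so its shift of -5.24 describes a gene nearly unlisted with the inhibitor.

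At mean levels of at least 100 FPKM, the largest shifts toward 3 or more ribosomes after RPL9 included CRYZL1, a quinone oxidoreductase-like protein, at 192, 171 and 103 FPKM in DMSO, against 55.2, 179 and 184 with the PRMT4 inhibitor. Its shift of 2.49 (counting SE 0.26) was stepwise and carried by the PRMT4 inhibitor 1-ribosome library, and with the PRMT1 inhibitor it was 0.33. OAZ3, an ornithine decarboxylase antizyme opposite MRPL9, was listed at 150, 149 and 214 against 52.9, 163 and 261, a stepwise shift of 1.66 (counting SE 0.20). Both genes were low with 1 ribosome and level with or above DMSO elsewhere.

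There were 32 stepwise shifts toward 3 or more ribosomes and 40 toward 1 that no single library carried. In these no library made up 50% of the shift, but 1 low value can still come close to that. In RPL36A, the lowest of them, the DMSO 1-ribosome library, at 1.81 FPKM, gave -4.41 of the shift of -8.91. POLR2E, a subunit shared by the nuclear RNA polymerases that lies opposite ARHGAP45, was listed at 10.0, 42.9 and 59.5 FPKM in DMSO, against 26.7, 15.1 and 8.78 with the PRMT4 inhibitor. The DMSO values ascended and the inhibitor values descended, for a shift of -4.08 (counting SE 0.63). GABPA, an ETS transcription factor opposite ATP5PF, was listed at 4.91, 25.9 and 22.6 against 67.9, 37.5 and 12.99 (shift -4.42), and KLC2, a kinesin light chain, at 18.1, 63.2 and 28.9 against 101, 57.4 and 12.4 (shift -3.70). In both, the inhibitor values again descended. Toward 3 or more ribosomes, EDC3, a scaffold of mRNA decapping opposite CLK3, was listed at 17.1, 12.6 and 8.28 in DMSO and 6.6, 13.4 and 30.0 with the inhibitor, a shift of 2.88. GPX3, a glutathione peroxidase, was at 96.0, 39.8 and 30.2 against 23.5, 62.0 and 52.95 (shift 2.66), and GMPR2, a GMP reductase opposite NEDD8, at 74.9, 36.9 and 44.7 against 20.3, 44.5 and 97.1 (shift 2.82). The same comparison against the PRMT1 inhibitor libraries in place of DMSO gave -2.11 for POLR2E, -3.66 for GABPA, -1.24 for KLC2, 1.94 for EDC3, 1.59 for GPX3 and 0.58 for GMPR2.

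**Figure D5:**
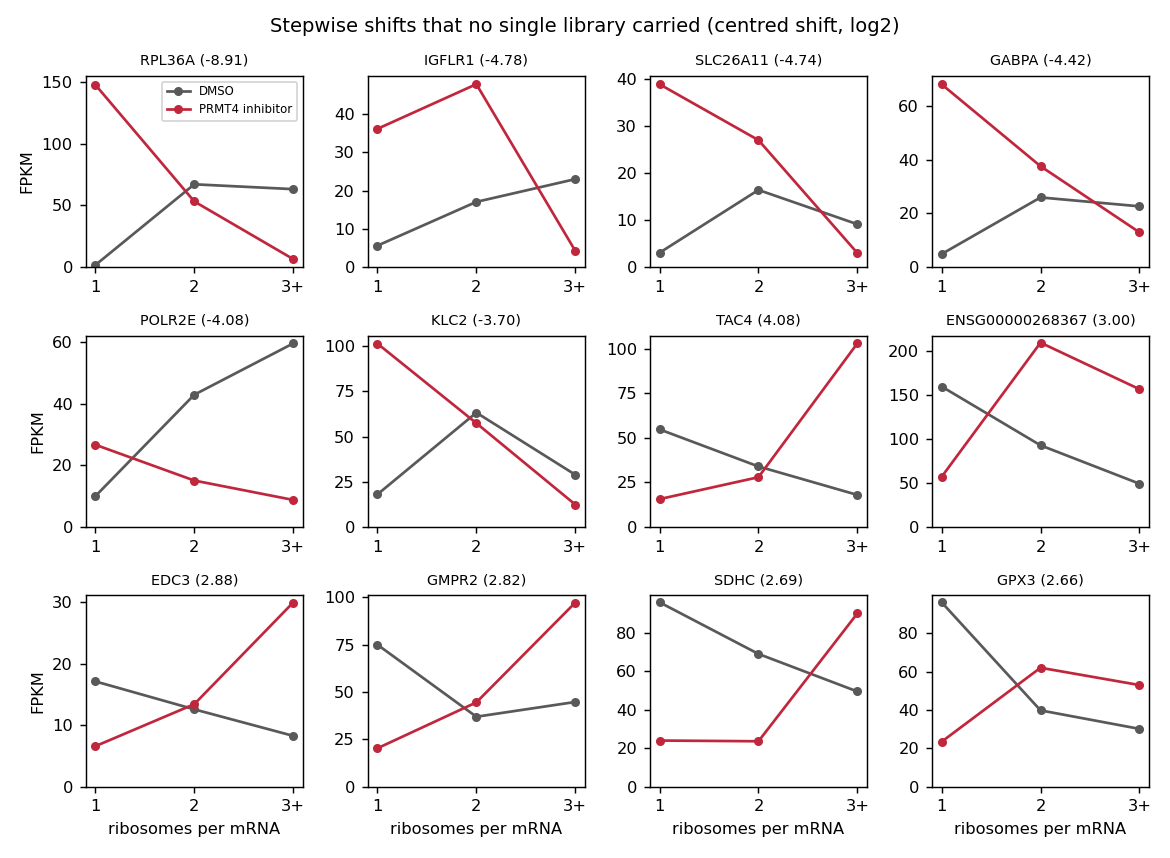
FPKM with 1, 2 and 3 or more ribosomes in DMSO (grey) and with the PRMT4 inhibitor (red) for the 6 lowest and 6 highest stepwise shifts that no single library carried, with the shift in brackets. In POLR2E the DMSO line ascends and the inhibitor line descends, and in EDC3 the lines cross the other way.

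The minimum on FPKM cut through genes of like kind. EXOSC9, a subunit of the RNA exosome opposite CCNA2, was just inside it at a mean of 20.01 FPKM, with a shift of 1.20, and AZIN1, an antizyme inhibitor opposite MAILR, at a mean of 20, with one of 0.11. EXOSC5, another exosome subunit opposite BCKDHA, was just outside at 19.97, with a shift of -0.03, and GAD1, a glutamate decarboxylase, at 19.98, with one of 3.37 that rests on 0 FPKM in the DMSO library with 3 or more ribosomes. Of the 2594 genes, 45 were listed at 0 in at least 1 of the 4 libraries, and 43 of those were past 2-fold, 20 toward 3 or more ribosomes and 23 toward 1.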

How the data were processed

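The authors deposited per-gene FPKM values with 2 decimals. The submitters' processing notes name cutadapt 1.18, STAR 2.5.3a, RSEM and the GRCh37 build. Per the labels' protocols, TRIzol was used for RNA and a directional NEBNext Ultra II kit for the libraries. Compounds, doses, times and the strand setting are not in the sources used here. The columns R1, R2 and R3 of the table were read as 1, 2 and 3 or more ribosomes. Groups came from the sample labels.

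Values were transformed as log2(FPKM + 1), which understates differences of low genes, and each difference was centred on its median over the 2594 genes (Python 3.11.15, pandas 2.3.3, numpy 2.4.6, scipy 1.17.1). A gene was counted at a shift of at least 2-fold. Fragments were estimated from FPKM steps with a fragment length of 150 bases. In genes with 1 transcript this put 93.2 to 94.6% of low values within 0.1 of a whole fragment in the 6 libraries. Fragments of all other genes used the longest annotated transcript. GENCODE 29 (GRCh38) served for names, coding lengths and opposite-strand partners, and RefSeq (GRCh38.p14) for start sequences. The script was tested on simulated data, with changes larger than 2-fold in 1 library at a time and counting noise only. Those data held no spread between cultures and no shift shared by libraries, so the test does not bear on these. The genes and the 27 lists were chosen with earlier results of these data known; 5 lists with under 5 genes are not described. Named genes were the 12 highest and 12 lowest shifts above 0 in all 6 libraries, the 6 highest and lowest at a mean of at least 100 FPKM, the 6 highest and lowest stepwise shifts without a single carrier, up to 3 leading members and 1 opposite member of each list, the methyltransferases and the genes beside the minimum. Not every gene chosen by this rule is described. Outside that rule, MT-ND5, MT-CO1, RPS2, RPL13, RPS15, TPT1, EIF4A1, H2BC12, H4C14, SNRNP25, WDR5, COX5B and the genes whose start sequences are printed were chosen after their values were seen. So were RPL10 and RPL35. Alternatives changed the pseudocount, the minimum, the centring, the fractions compared and the reference treatment.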

Additional observations from a re-analysis of the deposited data

Results flagged for a closer look

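In 19 named genes the ratio of 3 or more ribosomes to 1 was at least 2-fold one way in DMSO and at least 2-fold the other way with the PRMT4 inhibitor, 4 toward 3 or more ribosomes and 15 toward 1. With 1 library per group, the difference was not tested. The 4 shifted toward 3 or more ribosomes were MED22 (5.44), TAC4 (4.08), ENSG00000268367 (3.002) and GPX3 (2.66). The 15 shifted toward 1 ribosome were MT-ND4L (-10.4), RPL36A (-8.91), MT-CO2 (-7.77), NBR1 (-6.88), LIPT2 (-4.82), IGFLR1 (-4.78), GATAD2A (-4.77), SLC26A11 (-4.74), GABPA (-4.42), POLR2E (-4.08), CCNI (-3.68), H1-4 (-3.27), CCDC18 (-3.09), IER3 (-2.87) and HSP90B1 (-2.87). LIPT2, IGFLR1, SLC26A11 and IER3 lie opposite LIPT2-AS1, KMT2B, SGSH and IER3-AS1. The PRMT4 inhibitor 1-ribosome library carried those of CCDC18, H1-4, HSP90B1 and MT-CO2, and the PRMT4 inhibitor library with 3 or more ribosomes those of NBR1 and CCNI. The DMSO 1-ribosome library carried those of GATAD2A and IER3, and the DMSO library with 3 or more ribosomes that of MED22. The others had no single carrier. MT-ND4L and MT-CO2 were listed at 0 in the DMSO 1-ribosome library, so their values depend on the pseudocount.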

How the results depend on the processing

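No paired analysis was possible because each group holds 1 library. Counts toward 3 or more and toward 1 ribosome were 150 and 166 (of 1241 genes) at a minimum of 50 FPKM, 1314 and 1445 (of 6072) with at least 5, 3689 and 3596 (of 15534) with no minimum, 154 and 159 (of 819) for genes without an opposite-strand exon, and 206 and 272 when 3 or more was set against 2 ribosomes. Without centring they were 459 and 390, and with upper-quartile scaling 484 and 368. The mitochondrially encoded median was -0.33 for 3 or more against 2 ribosomes, -2.95 for the mean of 2 and 3 or more against 1, and -2.87 with the PRMT1 inhibitor libraries in place of DMSO (chosen after seeing the data); it lay between -3.70 and -3.47 under both other pseudocounts, without centring and with upper-quartile scaling. Only medians and named genes whose shift above was at least 2-fold are listed as reversed. Reversed medians were 0.11 with no minimum and 0.63 for 3 or more against 2 ribosomes in the PRMT4 substrates. In the snRNP proteins the latter gave 0.10. Several smaller medians changed sign with the PRMT1 inhibitor libraries in place of DMSO. These included histone genes (-0.38 to 0.72), p53 targets (0.47 to -0.76), heat shock chaperones (-0.35 to 0.56) and initiation factors (-0.22 to 0.35). Named genes reversed as follows; the cause was not tested. For 3 or more against 2 ribosomes: ACTG1 0.13, BTF3 -2.39, COX5A 1.24, COX8A 0.90, EIF3H 0.66, GATAD2A 0.45, H2AC13 0.87, HNRNPAB 0.44, HNRNPUL1 0.76, LIPT2 0.39, MRPL53 -0.15, MRPS34 0.32, MT-CO2 0.33, MT-ND1 0.38, MYC 0.31, PKM 1.53, PTGES3 -0.93, RPL17 -0.13, RPL7 -0.92, RPS26 -0.76, SLX1A 0.78, SNRPD3 0.30, SRPRA 0.20, SRSF2 0.58, TUBA1B 0.18, TUBB -0.45 and YY1 -0.078. For 2 against 1 ribosome: CFL1 0.46, EIF4G2 -0.013, OST4 2.19, RRP12 -1.09, SLC2A1 -1.72 and TP53I3 1.003; for the mean of 2 and 3 or more: OST4 0.24 and SLC2A1 -0.24. With the PRMT1 inhibitor libraries in place of DMSO: EEF2 -0.79, EIF3H 2.15, ENSG00000269558 4.54, H2AC13 1.46, HNRNPAB 0.11, HNRNPUL1 0.37, JUND -0.63, MDM2 -0.79, MRPL38 0.57, MT-ND4L 1.33, OST4 1.91, PKM 0.060, PSMC5 1.28, SLX1A 1.31, SNRPG 3.12 and TUBA1B 0.38.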
